A study of Rattus norvegicus with 12 samples.

Results

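Entry into S phase is held back, and exit from the cell cycle furthered, by inhibitors of cyclin-dependent kinases (CDKs), and the gene of one of them, p21, is also a target of p53. The genes examined here are 9 rat genes of this kind: the CDK inhibitors *Cdkn1a*, *Cdkn1b*, *Cdkn1c* and *Cdkn2c*, and the p53 target genes *Mdm2*, *Ccng1*, *Gadd45a*, *Btg2* and *Sesn1*. They were found on the arrays through the RefSeq accession of each probe, without its version. Of the 9 genes, 8 matched a probe, all 8 were tested, and *Sesn1* matched none and is named only. They stand among 16581 named genes on the arrays, of which 10741 were tested. The cells were L6 myotubes, made from myoblasts of this rat skeletal muscle line, a single cell line, by 6 days of differentiation in low serum according to the labels. They were exposed for 24 h to DMSO alone (control), or in DMSO to 60 µM of GR24, a synthetic strigolactone, of pinosylvin or of resveratrol. Each group had 3 arrays, 1 from each of 3 independent experiments on the same batch of cells, so that p-values measure the spread between experiments on that batch. Pinosylvin and resveratrol are plant stilbenes, and resveratrol carries an additional hydroxyl group on the ring that is unsubstituted in pinosylvin.

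The CIP/KIP proteins p21, p27 and p57, encoded by *Cdkn1a*, *Cdkn1b* and *Cdkn1c*, bind and inhibit complexes of cyclins with CDKs, while the INK4 proteins such as p18, encoded by *Cdkn2c*, bind CDK4 and CDK6. When myoblasts fuse, they leave the cell cycle for good, and p21, p57 and p18 are known to rise in differentiating muscle. p53 is kept low by the ubiquitin ligase Mdm2, whose gene is itself induced by p53, and upon DNA damage p53 also induces p21, cyclin G1, Gadd45a, Btg2 and sestrin 1. Several of these genes also answer to other stress pathways, so that none of them is a readout of p53 alone.

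Each array was of 1 colour and held 58717 spots other than controls, of which 58.0% to 64.3% were marked as well above background, here called detected, and none was saturated. The number of arrays limits the precision. A level is the log2 of the processed signal relative to the 75th percentile of its array, so that levels of different probes cannot be compared with each other. All 11 probes of the 8 genes were detected on all 12 arrays. Differences are log2 fold changes from 1 limma fit of the 12 arrays, and a gene is called where the Benjamini-Hochberg adjusted p is under 0.05 over all 24279 tested probes. The 3 comparisons with the control share the control arrays. Where a gene had 2 probes, the brighter on average is given first.

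With GR24 the mRNA of *Cdkn1c* fell most among the 8 genes, to a level 6.53-fold below the control, *Cdkn2c* and *Btg2* fell as well, and *Mdm2* and *Cdkn1b* rose 1.57-fold and 1.56-fold. With pinosylvin *Gadd45a* rose 2.03-fold and *Cdkn1a* 1.26-fold, while *Cdkn2c* fell 2.08-fold. With resveratrol *Gadd45a* and *Mdm2* rose 1.55-fold and 1.34-fold, and *Cdkn1c* and *Cdkn2c* fell 2.24-fold and 1.60-fold. *Cdkn2c* was the gene of the 8 that was called, and lower, with each of the 3 compounds.

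Of the 8 genes, 2 were called higher with GR24 and 3 lower, against 36.1% of all tested genes called higher and 26.7% called lower. Pinosylvin gave 2 called higher and 1 lower, where 8.59% and 9.77% of the tested genes were called. Resveratrol gave 2 higher and 2 lower, against 8.63% and 10.3%. GR24 thus moved a far larger part of all genes than the stilbenes did. Between the compounds, 2 genes were called higher and 4 lower with GR24 than with pinosylvin, where 34.7% of the tested genes were higher and 27.1% lower. Against resveratrol, GR24 had 1 gene higher and 6 lower, with 31.6% and 25.1% among all genes. Both counts of lower genes include *Cdkn1a* by its main probe, and by its second probe they are 3 and 5. Pinosylvin had 2 genes higher and 2 lower than resveratrol, with 8.13% and 8.26% among all genes. The median log2 fold change of the 8 genes was -0.12 with GR24, 0.15 with pinosylvin and 0.20 with resveratrol, and that of all tested genes was 0.078, 0.040 and 0.019. The GR24 median of the 8 genes depends on the *Cdkn1a* probe, which is -0.15 by the main probe and 0.36 by the second. With the second probe the middle values are those of *Ccng1* (-0.095) and *Gadd45a* (0.11), so the sign of this median is not settled.

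Arrays with the same replicate number deviated together from their group means, and so did replicates 1 and 2, which shared a slide, while replicate 3, on the other slide, stood apart. In the fit with the replicate number as a block, 1 more of the 8 genes was called in each of 4 comparisons. These were *Cdkn1a* with GR24 (lower, adjusted p = 0.0191), *Cdkn1c* with pinosylvin (higher, 0.00391), *Btg2* with resveratrol (higher, 0.0259) and *Gadd45a* for pinosylvin minus resveratrol (higher, 0.00771). In that fit GR24 had 2 of the 8 genes higher and 4 lower, or 3 lower without *Cdkn1a*, whose probes go opposite ways, among 41.1% and 30.7% of all tested genes. Pinosylvin then had 3 higher and 1 lower, among 17.1% and 14.3%, and resveratrol 3 higher and 2 lower, among 15.8% and 15.4%. For pinosylvin minus resveratrol the block gave 3 higher and 2 lower, among 14.3% and 14%.

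**Figure D1:**
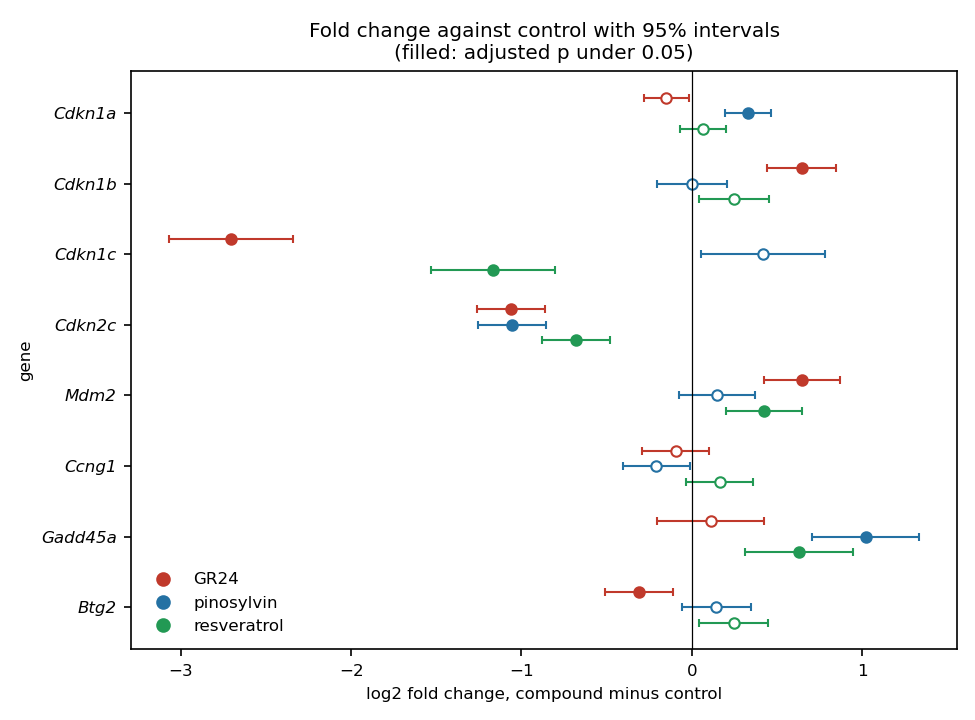
Log2 fold change of each compound against the control (horizontal axis) for 8 genes (vertical axis), with 95% intervals from the limma fit of 12 arrays; filled points have an adjusted p under 0.05 and open points do not. *Cdkn1c* with GR24 lies farthest from 0, at -2.71, and *Cdkn2c* lies below 0 with all 3 compounds.

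*Cdkn1c* encodes p57, a CDK inhibitor that, like p21 and p18, is known to rise in differentiating muscle. Its level on the control arrays was 1.21, 1.22 and 0.94, and on the GR24 arrays it was -1.33, -1.56 and -1.86. The pinosylvin arrays had 1.59, 1.72 and 1.31, and the resveratrol arrays 0.025, 0.12 and -0.28. The order was pinosylvin, control, resveratrol and GR24, and no array of one group overlapped with an array of another. As log2 fold change, *Cdkn1c* moved by -2.71 (SE 0.16, adjusted p = 2.44e-07) with GR24 and by -1.17 (SE 0.16, adjusted p = 0.000852) with resveratrol. GR24 lay a further 1.54 (SE 0.16, adjusted p = 2.27e-05) below resveratrol. Pinosylvin minus control, the neighbouring pair in this order that was not called, had 0.42 with a 95% interval of 0.055 to 0.78 (adjusted p = 0.114, and 0.00391 with the replicate block). By the other probe of this gene the same difference was 0.35 (SE 0.097, adjusted p = 0.0341), which was called. That probe gave -2.60 (SE 0.097, adjusted p = 8.03e-09) with GR24 and -1.04 (SE 0.097, adjusted p = 6.97e-05) with resveratrol, so both probes moved the same way with each compound. Within the slides, the GR24 difference of the brighter probe was -2.66 on the first slide and -2.80 on the other.

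*Cdkn1a*, which encodes p21, the best known p53 target among CDK inhibitors, moved much less. Its main probe, spotted 10 times on each array, was at 5.63, 5.64 and 5.63 on the control arrays and at 5.99, 6.02 and 5.89 on the pinosylvin arrays. With GR24 the levels were 5.46, 5.53 and 5.47, and with resveratrol 5.66, 5.78 and 5.66. Pinosylvin was thus highest and GR24 lowest, and the arrays of the 4 groups did not overlap, although the whole span was narrow. The rise with pinosylvin was 0.33 (SE 0.061, adjusted p = 0.00422), and the second probe, spotted once, gave 0.31 (SE 0.089, adjusted p = 0.0375). For GR24 the probes went opposite ways. The main probe had -0.15 (SE 0.061, adjusted p = 0.058), which was not called, or 0.0191 as adjusted p with the replicate block, and the second had 0.36 (SE 0.089, adjusted p = 0.00574), which was. On that probe the control arrays read -0.58, -0.59 and -0.56 and the GR24 arrays -0.12, -0.15 and -0.39. The direction of *Cdkn1a* with GR24 is therefore not settled by these arrays, nor is its difference between GR24 and the other compounds. On the main probe GR24 was lower than pinosylvin by 0.48 (SE 0.061, adjusted p = 6.58e-05), and on the second the difference was 0.044 with an interval of -0.15 to 0.24. GR24 minus resveratrol was -0.22 (SE 0.061, adjusted p = 0.0119) on the main probe, a call kept in 15 of 25 alternatives. It was lost with quantile normalization (adjusted p = 0.196), in the deposited table (0.161), without a filter on dim probes (0.0575) and with the mean over both probes (0.999), among others. Resveratrol minus control was 0.068, with an interval of -0.067 to 0.20 (adjusted p = 0.535).

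*Cdkn1b* encodes p27, which accumulates in resting cells and is degraded through the ubiquitin ligase subunit Skp2. Its control levels were 2.05, 2.03 and 2.17, and the GR24 levels were 2.73, 2.87 and 2.59, each above every array of the other groups. Pinosylvin gave 2.11, 1.98 and 2.17 and resveratrol 2.21, 2.43 and 2.35. The rise with GR24 was 0.64 (SE 0.092, adjusted p = 0.000146), and the other probe gave 0.57 (SE 0.11, adjusted p = 0.000998). GR24 also exceeded pinosylvin by 0.64 (SE 0.092, adjusted p = 0.000161) and resveratrol by 0.40 (SE 0.092, adjusted p = 0.00433). Pinosylvin and control could not be ordered, with a difference of 0.0025 and an interval of -0.20 to 0.21. Resveratrol minus control was 0.25 (SE 0.092, adjusted p = 0.0962) and missed the threshold, and the other probe gave 0.10 (SE 0.11, adjusted p = 0.614). Within the slides the GR24 difference was 0.76 on the first slide and 0.42 on the other.

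*Cdkn2c*, which encodes the INK4 protein p18, was at 1.06, 1.03 and 0.94 on the control arrays. The levels were 0.0023, 0.035 and -0.18 with GR24 and -0.030, -0.056 and -0.049 with pinosylvin, which overlapped with each other and lay below all control arrays. Resveratrol lay between, at 0.25, 0.52 and 0.23. The log2 fold changes were -1.06 (SE 0.090, adjusted p = 3.15e-06) with GR24, -1.06 (SE 0.090, adjusted p = 2.55e-05) with pinosylvin and -0.68 (SE 0.090, adjusted p = 0.000592) with resveratrol. GR24 and pinosylvin differed by -0.0018, with a 95% interval of -0.20 to 0.20, so a difference of that size in either direction remains possible. Resveratrol was higher than both, with -0.38 (SE 0.090, adjusted p = 0.00482) for GR24 minus resveratrol and -0.38 (SE 0.090, adjusted p = 0.0193) for pinosylvin minus resveratrol. The last of these was not called when any pinosylvin array or the second resveratrol array was left out, with an adjusted p of 0.0513 to 0.0646, nor without a filter on dim probes (0.0724) or with only the 6 arrays compared (0.0612). Within the slides the difference from control was -1.03 on the first slide and -1.12 on the other for GR24, and for pinosylvin it was -1.09 on the first slide and -0.99 on the other.

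Among the other INK4 genes, *Cdkn2d*, which encodes p19, was the tested one of 3. It fell with GR24 by 1.07 (adjusted p = 5.76e-06), with pinosylvin by 1.18 (adjusted p = 2.17e-05) and with resveratrol by 0.52 (adjusted p = 0.00467), on the log2 scale. *Cdkn2a*, which encodes p16 and the p53 activator p19ARF, was detected on 2 control arrays, 1 GR24 array, 2 pinosylvin arrays and 1 resveratrol array. *Cdkn2b*, which encodes p15, was detected on 2 GR24 arrays and on no array of the other groups. Neither was tested, and no difference is given for them.

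**Figure D2:**
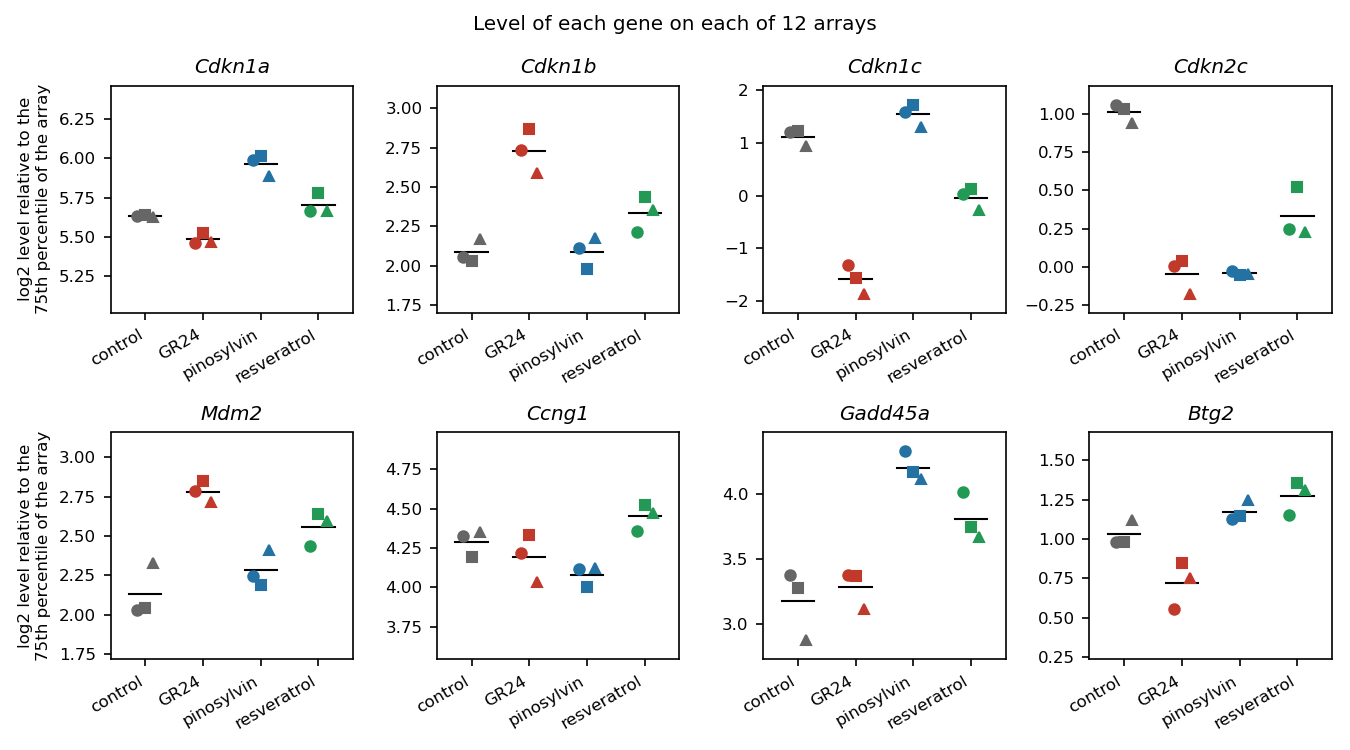
Level of each gene (vertical axis, log2 relative to the 75th percentile of the array) on the 12 arrays by group (horizontal axis); circles, squares and triangles are replicates 1, 2 and 3, bars are group means, and the vertical range differs between panels. The control arrays of *Cdkn2c*, at 0.94 to 1.06, lie above all arrays of the 3 compounds, and the GR24 arrays of *Cdkn1c*, at -1.86 to -1.33, lie below all others.

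*Gadd45a*, a stress-induced gene whose product acts in growth arrest and DNA repair, responded to the stilbenes. Its levels were 3.37, 3.28 and 2.88 on the control arrays and 3.38, 3.37 and 3.12 on the GR24 arrays, which overlapped. They were 4.32, 4.16 and 4.11 with pinosylvin and 4.01, 3.74 and 3.66 with resveratrol, all above every control and GR24 array. The rise was 1.02 (SE 0.14, adjusted p = 0.000783) with pinosylvin and 0.63 (SE 0.14, adjusted p = 0.0124) with resveratrol. For resveratrol the call was lost without its first replicate (adjusted p = 0.0511) and with only the 6 arrays compared (0.0563). GR24 minus control was 0.11, with an interval of -0.21 to 0.43. GR24 was lower than pinosylvin by 0.91 (SE 0.14, adjusted p = 0.000295) and lower than resveratrol by 0.52 (SE 0.14, adjusted p = 0.0106). The stilbenes differed by 0.39 (interval 0.075 to 0.71, adjusted p = 0.099), and with the replicate block the adjusted p was 0.00771. Within the slides the pinosylvin rise was 0.92 on the first slide and 1.23 on the other. In each group the replicate on the second slide had the lowest level.

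*Mdm2*, the ubiquitin ligase that holds p53 down, was at 2.03, 2.04 and 2.33 on the control arrays and at 2.78, 2.85 and 2.71 on the GR24 arrays. Pinosylvin gave 2.25, 2.19 and 2.41, which overlapped with the control, and resveratrol 2.44, 2.64 and 2.60, which did not. The order of the means was GR24, resveratrol, pinosylvin and control. The rise was 0.65 (SE 0.10, adjusted p = 0.000254) with GR24 and 0.42 (SE 0.10, adjusted p = 0.0157) with resveratrol. The resveratrol call was lost when control array 1 or 2 or resveratrol array 2 or 3 was left out, with adjusted p from 0.0539 to 0.0643. It was lost also with only the 6 arrays compared (0.0644) and without a filter on dim probes (0.0544). Pinosylvin minus control was 0.15, with an interval of -0.075 to 0.37. Within the slides the GR24 difference was 0.78 on the first slide and 0.38 on the other. Among neighbours in the order, GR24 minus resveratrol was 0.23 (SE 0.10, adjusted p = 0.0855) and pinosylvin minus resveratrol -0.28 (SE 0.10, adjusted p = 0.0989), neither of them called. With the slide as a block both were called, with an adjusted p of 0.0461 and 0.0429. Over all 25 alternatives GR24 minus resveratrol was called in 8, among them quantile normalization (0.0437) and the deposited table (0.0373), and pinosylvin minus resveratrol in 2. The signs were the same in all 25, so the calls but not the order depend on the processing.

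*Btg2*, an antiproliferative gene, had levels of 0.98 to 1.12 on the control arrays and 0.56 to 0.85 on the GR24 arrays. With pinosylvin the range was 1.13 to 1.25 and with resveratrol 1.15 to 1.36, so GR24 was the lowest group. It fell with GR24 by 0.31 (SE 0.091, adjusted p = 0.0132). Its call was lost without the first GR24 array (adjusted p = 0.0579), on the first slide alone (0.0793) and with the percentile taken over all spots (0.0985). GR24 was lower than pinosylvin by 0.45 (SE 0.091, adjusted p = 0.0015) and lower than resveratrol by 0.56 (SE 0.091, adjusted p = 0.000459). Resveratrol minus control was 0.25 (SE 0.091, adjusted p = 0.0959), which passed the threshold with the replicate block (adjusted p = 0.0259). *Ccng1*, which encodes cyclin G1, was at 4.19 to 4.35 in the control, 4.03 to 4.33 with GR24, 4.00 to 4.13 with pinosylvin and 4.36 to 4.53 with resveratrol. No compound differed from the control by the test, with intervals of -0.29 to 0.10 for GR24, -0.41 to -0.012 for pinosylvin and -0.032 to 0.36 for resveratrol. Resveratrol was above pinosylvin, with -0.37 (SE 0.088, adjusted p = 0.0189) for pinosylvin minus resveratrol, and above GR24, with -0.26 (SE 0.088, adjusted p = 0.0306) for GR24 minus resveratrol. The pinosylvin call was lost without pinosylvin array 2 or resveratrol array 2 or 3, with adjusted p up to 0.0777, and without a filter on dim probes (0.0718). The GR24 call was lost in 10 of 25 alternatives, among them quantile normalization (0.078) and the fit without GR24 array 3 (0.105).

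Between the stilbenes, which differ by a hydroxyl group and were given at the same dose and time, 4 of the 8 genes were called. Among all tested genes 8.13% were called higher and 8.26% lower with pinosylvin than with resveratrol. Without a filter on dim probes, 1 of the 8 genes was called. *Cdkn1c* was 3.00-fold higher with pinosylvin than with resveratrol, 1.58 (SE 0.16, adjusted p = 0.000167), and was called in every alternative tried. *Cdkn1a* was 0.26 (SE 0.061, adjusted p = 0.0167), and its call was lost in 12 of 25 alternatives. Among these were quantile normalization (adjusted p = 0.0695), the deposited table (0.0889), no filter on dim probes (0.0871), only the 6 arrays compared (0.0812), 4 fits with an array left out and its second probe (0.244). *Cdkn2c* and *Ccng1* were lower with pinosylvin, by the values given above, and their calls were lost in 6 and 4 of 25 alternatives. The genes that were not called had intervals of -0.45 to -0.042 for *Cdkn1b* (-0.24 to 0.24 on its other probe), -0.50 to -0.053 for *Mdm2*, 0.075 to 0.71 for *Gadd45a* and -0.30 to 0.10 for *Btg2*. *Cdkn1c* was also the gene for which the compounds parted most against the control, with 0.42 for pinosylvin and -1.17 for resveratrol.

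All 29 called differences of the 8 genes over the 6 comparisons had the same sign on both slides. The calls were made on these same arrays, so the agreement in sign is not independent support for them. One slide held replicates 1 and 2 of every group and the other replicate 3, so that the latter had 1 array per group and no test. With the slide as a block, the adjusted p was 1.97e-09 for *Cdkn1c* with GR24, 7.71e-06 for *Cdkn2c* with pinosylvin and 3.82e-05 for *Gadd45a* with pinosylvin.

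The wider set of p53 target genes moved in both directions. Of 39 listed genes 35 were on the arrays and 34 were tested. With GR24, 15 were called higher (44.1%) and 4 lower (11.8%), beside 36.1% and 26.7% of all tested genes, and the median log2 fold change was 0.22. The largest rises were those of *Gdf15*, *Fdxr* and *Tigar*. *Gdf15*, a stress-induced cytokine, was below detection on the control arrays, and with GR24 it was at least 6.36-fold higher with this scaling (adjusted p = 5.21e-06). Its size depends on the scaling and background correction, as the log2 difference was 1.11 to 3.16 over 6 others, called in each. The bound sets the mean of the brighter group against, per array of the dimmer group, the probe's own signal or the lowest detected signal of that array, whichever is higher. *Fdxr*, which encodes ferredoxin reductase, rose by 1.48 (adjusted p = 3.75e-07) and *Tigar*, whose product restrains glycolysis, by 1.19 (adjusted p = 5.44e-06). *Tp53i11* was below detection on the GR24 arrays and was at least 4.54-fold lower with this scaling (adjusted p = 2.72e-06), with a log2 difference of -2.71 to -0.73 over the 6 others. The kinase gene *Plk2* had -0.62 (adjusted p = 1.98e-05), and the autophagy gene *Dram1* had -0.56 (adjusted p = 0.0253), called in 3 of 6 other scalings, over which it was -0.56 to -0.25.

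With pinosylvin 5 of the 34 were higher (14.7%) and 2 lower (5.88%), beside 8.59% and 9.77% of all tested genes, with a median of 0.013. *Btg1*, a relative of *Btg2*, rose by 0.59 (adjusted p = 0.00643) and *Tp53inp1* by 0.44 (adjusted p = 0.00638). The adaptor gene *Pidd1* fell, with -0.45 (adjusted p = 0.0153), and so did *Tigar*, with -0.37 (adjusted p = 0.0444), which had risen with GR24. The 5 include *Gdf15*, which was detected on 1 pinosylvin array and on no control array, so that its call is not read as a change. With resveratrol the counts were again 5 and 2, beside 8.63% and 10.3% of all tested genes, with a median of 0.051. *Gdf15* was at least 3.09-fold higher with this scaling (adjusted p = 0.000809), and over the 6 others the log2 difference was 0.54 to 2.15. The polo-like kinase gene *Plk3* rose by 0.60 (adjusted p = 0.00886) and the TNF receptor gene *Tnfrsf1a* by 0.47 (adjusted p = 0.00105). The DNA damage recognition gene *Ddb2* had -0.45 (adjusted p = 0.0064) and the tetraspanin gene *Cd82* -0.31 (adjusted p = 0.0192), both lower. With the replicate block the counts were 18 higher and 6 lower with GR24, beside 41.1% and 30.7% of all tested genes. They were 5 higher and 4 lower with pinosylvin, beside 17.1% and 14.3%, and 6 higher and 2 lower with resveratrol, beside 15.8% and 15.4%.

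Regulators of p53 activity were followed as well. *Mdm4*, the partner of Mdm2 in restraining p53, had intervals of -0.26 to 0.18 with GR24, -0.11 to 0.33 with pinosylvin and -0.14 to 0.30 with resveratrol, none called. With GR24 the deubiquitinase gene *Usp7* rose by 0.73 (adjusted p = 7.84e-06) and *Daxx* by 0.56 (adjusted p = 0.00473), while the checkpoint kinase gene *Chek1* had -1.27 (adjusted p = 2.33e-05), *Tp53bp1* -1.20 (adjusted p = 1.86e-07) and *Ube2d1*, a ubiquitin-conjugating enzyme gene, -1.12 (adjusted p = 1.07e-07). Over 6 other scalings *Tp53bp1* was -1.20 to -0.64 with GR24, called in each. With pinosylvin the genes called lower were *Chek2* with -0.81 (adjusted p = 0.0037), or -0.83 to -0.36 over the other scalings, *Chek1* with -0.62 (adjusted p = 0.0131) and the damage kinase gene *Atm* with -0.38 (adjusted p = 0.0221). With resveratrol they were *Chek1* with -0.65 (adjusted p = 0.0101), *Atm* with -0.39 (adjusted p = 0.0197) and *Ube2d1* with -0.26 (adjusted p = 0.0153). *Tp53bp1*, which encodes a DNA damage adaptor and fell with GR24, had 0.23 (adjusted p = 0.0453) with pinosylvin, called in 1 of 6 other scalings (0.13 to 0.24), and 0.30 (adjusted p = 0.0149) with resveratrol, called in 3 of 6 (0.13 to 0.35).

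The relatives of these genes within their families, some of them p53 targets too, were followed in a list of 11, of which 9 were tested. The sestrin gene *Sesn3* rose with all 3 compounds, by 0.54 (adjusted p = 0.00486) with GR24, 0.79 (adjusted p = 0.00239) with pinosylvin and 1.30 (adjusted p = 0.000112) with resveratrol. Over 6 other scalings it was 0.24 to 0.64, 0.46 to 0.79 and 0.72 to 1.38, called in each, so the size of the rise depends on the scaling. The other *Gadd45* genes went down with GR24, *Gadd45g* by 2.26 (adjusted p = 1.05e-07) and *Gadd45b* by 1.07 (adjusted p = 8.16e-05), where *Gadd45a* was not called. *Ccni*, which encodes cyclin I, had -0.26 (adjusted p = 0.0128), or -0.27 to -0.16 over 6 other scalings, and *Btg1* rose, with 0.49 (adjusted p = 0.00388). In all, 2 relatives were higher and 3 lower with GR24 (median 0.034), 2 and 0 with pinosylvin (median 0.22), and 1 and 0 with resveratrol (median 0.034). The shares of all tested genes called higher and lower were 36.1% and 26.7%, 8.59% and 9.77% and 8.63% and 10.3% in these comparisons, and 41.1% and 30.7%, 17.1% and 14.3% and 15.8% and 15.4% with the replicate block. With the replicate block the counts were 4 and 3 with GR24, 5 and 0 with pinosylvin and 2 and 1 with resveratrol. The genes added for GR24 were *Sesn2* (adjusted p = 0.0462) and *Tob1* (0.0471), both higher, by 0.30 and 0.38. Without the block they were called in 1 and 0 of 6 other scalings. *Tob1* did not rise in replicate 3, with 0.10 in the control and 0.087 with GR24. Those added for pinosylvin were *Gadd45b* (adjusted p = 0.0361), *Tob2* (0.00458) and *Ccni* (0.0226), all higher. For resveratrol they were *Ccng2* (higher, 0.0219) and *Gadd45g* (lower, 0.017).

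The machinery that the CDK inhibitors act on was listed as G1 cyclins, CDKs and the RB-E2F switch, with 22 genes tested of 27. With GR24, 6 were higher and 12 lower, beside 36.1% and 26.7% of all tested genes, with a median of -0.23. *Skp2*, the subunit that marks p27 for degradation, fell by 2.07 (adjusted p = 6.51e-07) on the log2 scale, and had -2.07 to -1.27 over 6 other scalings. The *Cdkn1b* mRNA rose in the same group, but the arrays do not read p27 protein, and a link was not tested. The D-type cyclin gene *Ccnd3*, which is known for its high level in differentiated muscle, had -1.65 (adjusted p = 5.89e-08) and the E-type cyclin gene *Ccne2* -1.55 (adjusted p = 9.6e-08). *Rbl2*, which encodes the pocket protein p130 of resting cells, rose by 0.78 (adjusted p = 2.27e-05), *Ccnh*, a subunit of the CDK-activating kinase, by 0.56 (adjusted p = 9.88e-05) and *Cul1*, the scaffold of the ligase that holds Skp2, by 0.42 (adjusted p = 0.0085). Pinosylvin gave 2 higher and 5 lower (median -0.016), beside 8.59% and 9.77%. The repressor gene *E2f6* rose by 0.54 (adjusted p = 0.000897) and the phosphatase gene *Cdc25a* had 0.21 (adjusted p = 0.0414), called in 2 of 6 other scalings, while *Ccne1* had -0.70 (adjusted p = 0.00203), *Ccne2* -0.61 (adjusted p = 0.000602) and the CDK subunit gene *Cks1b* -0.50 (adjusted p = 0.000404). Resveratrol gave 1 higher and 7 lower (median -0.13), beside 8.63% and 10.3%, with *E2f6* at 0.30 (adjusted p = 0.0215), *Skp2* at -0.69 (adjusted p = 0.00747), *Ccne2* at -0.68 (adjusted p = 0.000356) and *Ccne1* at -0.60 (adjusted p = 0.00478).

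Most markers of dividing cells, which in myotube cultures mark the myoblasts that have not left the cell cycle, fell with all 3 compounds, as *Cdkn2c* did. Of 12 listed, 10 were on the arrays and all 10 were detected on every array. With GR24, 9 fell and 0 rose, with pinosylvin 10 fell and 0 rose, and with resveratrol 9 fell and 0 rose, with medians of -1.66, -1.37 and -0.81. Of all tested genes 26.7%, 9.77% and 10.3% were called lower. The largest falls with GR24 were those of the mitotic genes *Plk1* (-3.24), *Ccnb1* (-2.86) and *Mki67* (-2.83), and the same genes had -1.91, -1.74 and -1.65 with pinosylvin. With resveratrol the largest were *Mcm3* (-1.12), *Plk1* (-1.05) and *Ccnb1* (-1.02). The summed level of the 10 genes on a linear scale, where 1 is the 75th percentile of the array, was 129, 129 and 120 on the control arrays and 37.5, 37.7 and 34.8 with GR24. It was 58.9, 60.6 and 58.7 with pinosylvin and 71.4, 75.01 and 68.8 with resveratrol. The probe that added most was that of *Cdk1* in the control and resveratrol groups, *Pcna* with GR24 and *Mcm2* with pinosylvin. The sums of the groups did not overlap, and the part of dividing cells in the fall of *Cdkn2c* was not tested. In these RNA pools fewer cells of a type and less RNA per cell cannot be told apart.

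Of the markers of myotubes, all 11 listed genes were detected on every array. With GR24, 8 fell and 0 rose, against the 26.7% of all genes that fell (median -1.14), led by the myogenic factor gene *Myog* (-5.83) and the actin genes *Acta1* (-3.88) and *Actc1* (-2.90). With pinosylvin 2 rose and 0 fell (median 0.21), beside 8.59% and 9.77% of all tested genes. *Myog* rose by 0.73 (adjusted p = 0.00654) and the troponin gene *Tnnt3* by 0.54 (adjusted p = 0.000919). With the replicate block 5 rose and 1 fell with pinosylvin, beside 17.1% and 14.3% of all tested genes. In that fit 0 rose and 9 fell with GR24, beside 41.1% and 30.7%. With resveratrol 0 rose and 7 fell in that fit, beside 15.8% and 15.4%. In the fit without a block, resveratrol had 8.63% of all tested genes called higher and 10.3% lower. Of the 11 markers 0 rose with resveratrol, 6 were not called and 5 fell (median of all 11 -0.30). Among those that fell were the creatine kinase gene *Ckm* (-1.04), *Actc1* (-0.80) and *Myog* (-0.51). The summed level was 970, 1065 and 938 on the control arrays, 414, 400 and 385 with GR24, 1063, 1117 and 1031 with pinosylvin and 834, 890 and 805 with resveratrol, with *Myh3* adding most on each array. The part of myotube number or maturity in the change of *Cdkn1c* was not tested.

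**Figure D3:**
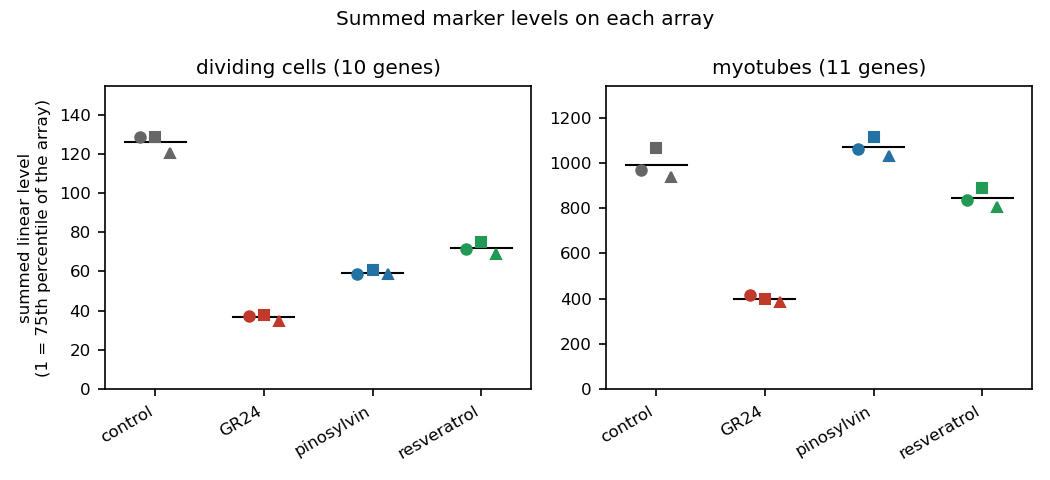
Summed linear level of 10 markers of dividing cells (left) and 11 markers of myotubes (right) on each array (vertical axis, 1 is the 75th percentile of the array), by group (horizontal axis); circles, squares and triangles are replicates 1, 2 and 3 and bars are group means. Dividing-cell sums are 120 or more on control arrays and 75.01 or less with the compounds, and myotube sums are 414 or less with GR24.

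Of 5 markers of undifferentiated myoblasts 4 were tested, *Id3* being too dim. With GR24 *Id2*, an inhibitor of myogenic factors, rose by 1.22 (adjusted p = 9.93e-07) and *Myf5*, a factor of committed myoblasts, had -0.88 (adjusted p = 1.21e-05). With pinosylvin *Id1* had -0.77 (adjusted p = 0.000226) and *Id2* -0.33 (adjusted p = 0.0267), both lower, and with resveratrol limma called none of the 4, and all 4 intervals included 0, so that 0 had an unadjusted p under 0.05. The medians were -0.16 with GR24, -0.26 with pinosylvin and -0.0043 with resveratrol. The summed level of all 5, the untested *Id3* included, to which *Myf5* added most, was 6.28, 6.04 and 6.67 in the control, 4.72, 4.84 and 4.68 with GR24, 5.75, 5.30 and 5.30 with pinosylvin and 5.65, 6.79 and 6.44 with resveratrol. All 5 fibroblast markers were tested, and 1 was higher and 4 lower with GR24, 1 and 2 with pinosylvin, and 1 and 1 with resveratrol, with medians of -0.47, 0.068 and -0.20. Of all tested genes 36.1% were called higher and 26.7% lower with GR24, 8.59% and 9.77% with pinosylvin, and 8.63% and 10.3% with resveratrol. *Pdgfra* was the higher one each time, by 0.23 with GR24 (called in 4 of 6 other scalings, 0.13 to 0.33), 0.43 with pinosylvin and 0.35 with resveratrol. *Thy1* had -0.90 with GR24 and -0.63 with pinosylvin, and *Col1a1* had -0.81, -0.34 and -0.43 with the 3 compounds. Muscle cells also express several of these genes. The fibroblast sum, to which *Col1a2* added most, was 357, 395 and 365 in the control, 251, 254 and 245 with GR24, 334, 370 and 373 with pinosylvin and 308, 302 and 320 with resveratrol.

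The profiles of *Cdkn1c*, *Cdkn2c* and *Gadd45a* were compared with 9815 other genes detected on all 12 arrays, by the root mean square difference over the arrays after each gene's control mean was subtracted. Closest to *Cdkn1c* were the muscle creatine kinase gene *Ckm* (0.15), *Olfml2b* (0.28) and *Inka2* (0.28). *Ckm* had log2 fold changes of -2.58 with GR24, 0.25 with pinosylvin and -1.04 with resveratrol. Closest to *Cdkn2c* were *Bok* (0.11), a Bcl2 family gene, *Nrm* (0.11), which encodes nurim of the nuclear envelope, and the INK4 gene *Cdkn2d* (0.11). Closest to *Gadd45a* were *Pck2* (0.15), the mitochondrial phosphoenolpyruvate carboxykinase gene, *Tmem158* (0.17) and *Gramd1b* (0.19). *Pck2* had 0.13 with GR24, 1.08 with pinosylvin and 0.82 with resveratrol.

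What these genes share in sequence was looked up in RefSeq promoter windows of the rat build GRCr8, from 250 bases before to 50 after each gene's start. Of the 9 genes 8 had a window, *Cdkn1c* being the one without. The p53 site, which consists of a pair of half-sites of 10 bases, was searched with no spacer, over 20 bases. Allowing 1 mismatch, it was present in the windows of *Cdkn1a* and *Ccng1*, and in 0.0717% of all 33469 windows (24 windows). A half-site without mismatch was in the windows of 5 of the 8 genes (*Cdkn1a*, *Cdkn2c*, *Ccng1*, *Gadd45a* and *Sesn1*) and in 7.98% of all windows. The letters GGCGGGAA, an E2F motif, were in the window of *Cdkn2c* and in 1.91% of all windows, and the cyclic AMP response element TGACGTCA was in that of *Btg2* and in 1.83% of all. The antioxidant response element was in those of *Cdkn1a*, *Cdkn1b* and *Gadd45a* and in 12.1%, the E-box CAGCTG in that of *Gadd45a* and in 15.1%, and the ATF4 composite motif in none of the 8 and in 3.98%. Each motif was searched on both strands, and the half-site lies within the full site in *Cdkn1a* and *Ccng1*. The window of *Mdm2* held none of them, which says only that these letters are absent from it.

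The stretches around the p53 sites of *Cdkn1a* and *Ccng1*, the E2F motif of *Cdkn2c* and the cyclic AMP response element of *Btg2* are shown because they are the rarer matches among these genes. Capitals mark the match, all are written 5′ to 3′ on the strand of the gene, and a match is not evidence of binding. *Cdkn1a* lies on the plus strand and the others on the minus strand. The E2F motif lies after the start of *Cdkn2c* and the others before the start of their genes. The p53 sites have 1 mismatch each.
Cdkn1a, chr20:7150711-7150770: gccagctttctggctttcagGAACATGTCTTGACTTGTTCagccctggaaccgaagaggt
Ccng1, chr10:25685094-25685123: cagctAGACCTGCCCGGGCAAGCCTtggca
Cdkn2c, chr5:129644867-129644896: gctcggtcgtaGGCGGGAAgttactggtga
Btg2, chr13:48087873-48087902: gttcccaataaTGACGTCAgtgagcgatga
The genes with the closest p53 sites did not move alike. *Cdkn1a* was called with pinosylvin, at 0.33, where *Ccng1* had -0.21 and was not called, and neither gene was called by its main probe with GR24 in the fit without a block, in the group where *Mdm2* rose.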

How the data were processed

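RNA of 12 L6 cultures was hybridised to Agilent 1-colour arrays. The authors deposited the scanner output, in which the processed signal is an intensity that Agilent Feature Extraction 12.0.0.7, per the file headers, had background-subtracted array by array, with no normalization between arrays. The deposited median signal and median background intensities were used for the background alternatives. Other deposited columns used are 0/1 marks: outlier, saturated, and well above background (detected). The authors also deposited a table of normalized log2 values for 25848 probes, used as an alternative. Its columns correlated best with the log2 median signal of their own arrays, and its background correction, normalization and centring are not given in the sources used here.

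The log2 processed signal was taken, control spots were left out, spots marked as outliers were set to missing, spots of a probe were averaged, and each array's 75th percentile over all probes was subtracted. A probe was tested if it was detected, by most of its spots, on each of the 3 arrays of some group (24279 of 45598 probes). limma 3.58.1 in R 4.3.3 fitted 1 mean per group over 12 arrays (lmFit, contrasts, eBayes, two-sided) and p-values were Benjamini-Hochberg adjusted over all tested probes, with a threshold of 0.05 and 95% intervals. The steps were tested on simulated data. A RefSeq gene table of the rat assembly GRCr8 named 21109 probes, and the brightest tested probe on average stands for a gene.

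Correlations of the deviations from the group means were above 0.1 for all 18 pairs of arrays with the same replicate number (0.19 to 0.74), and -0.66 to 0.48 for the 36 pairs with different numbers. The 12 of these that pair replicate 1 with replicate 2, from the same slide, had 0.22 to 0.48, and those with replicate 3, from the other slide, were all negative. The deviations thus follow the slide, and the number could not be told from the slide for replicate 3. Per the labels 3 independent experiments were made, and both the number and the slide were tried as a block.

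All genes of interest are reported. From each list, counts are given with up to 3 higher and 3 lower genes, those called, without overlap between the groups' arrays and with the largest log2 fold changes, and *Mdm4* and the INK4 genes in any case. For the regulators of p53, genes are given without counts. The most similar genes are given for genes of interest with a called log2 fold change of at least 1 in size. The members and lists were chosen with earlier results of these data known. *Btg1*, *Sesn2*, *Ppm1d* and *Cdkn2a* stand in 2 lists each. Alternatives were other scalings and background corrections (quantile; normexp with an offset of 50), the deposited table, filters, blocks, 6 arrays only, each replicate left out, and, chosen after the data were seen, the percentile over all spots, the second *Cdkn1a* probe and the block with other scalings. The paper gives a longer differentiation than the labels, whose 6 days are used.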

Additional observations from a re-analysis of the deposited data

How the results depend on the processing

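Over the 8 genes, 6 comparisons and all alternatives there were 1200 values, of which 1091 kept direction and side of the threshold, 52 lost the call, 34 gained it and 23 changed sign. The calls of *Cdkn1c*, *Cdkn2c*, *Mdm2* and *Cdkn1b* with GR24, of *Cdkn2c*, *Gadd45a* and *Cdkn1a* with pinosylvin and of *Cdkn1c* and *Cdkn2c* with resveratrol, each against control, held in every alternative run. Where a value called in either fit changed sign, it was by the second *Cdkn1a* probe, with 0.36 for GR24 minus control, 0.044 for GR24 minus pinosylvin and 0.22 for GR24 minus resveratrol, and the cause was not tested.

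The other changes of sign were of differences called neither before nor after, and their direction is not known. *Cdkn2c* for GR24 minus pinosylvin was 0.026 with quantile normalization, 0.016 with normexp before it, 0.018 in the deposited table, 0.020 with the percentile over detected probes, 0.062 on slide 1, 0.089 with the percentile over all spots, and -0.043 to 0.064 with an array left out. *Cdkn1b* with pinosylvin was -0.040 with normexp, -0.015 with the percentile over detected probes and -0.041 to 0.057 with an array left out. With GR24 *Ccng1* was 0.016 on slide 1 and 0.0045 with the percentile over all spots, *Gadd45a* was -0.039 to 0.21 with an array left out, and *Cdkn1a* was 0.10 as the mean of its probes. Of differences not called at first, *Mdm2* for GR24 minus resveratrol was called in 8 of 25 alternatives, *Cdkn1c* with pinosylvin in 6, *Cdkn1a* with GR24 as lower in 5 and as higher in 1 by its second probe, *Gadd45a* for pinosylvin minus resveratrol in 5, *Btg2* with resveratrol in 4 and *Gadd45a* with GR24 in 2.

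The number of probes called, 4019 for pinosylvin, 4123 for resveratrol and 3528 for pinosylvin minus resveratrol, rose to 6947, 6769 and 6323 with the replicate block, which changed no call of the 8 genes other than those given above. With the slide as a block it was 7074, 6869 and 6443. The deposited table with the replicate block gave 6790, 6946 and 6118, and quantile normalization with it 7078, 7182 and 6244. Without a filter, which nearly doubled the probes adjusted over, the counts were 2409, 2680 and 1975, and 1 of the 8 genes was called for pinosylvin minus resveratrol. A fit of only the 6 arrays compared, with fewer samples, called 2479 probes with pinosylvin, 2 of the 8 genes and 2838 probes with resveratrol, and 2 genes and 2565 probes for pinosylvin minus resveratrol, each of 24279 probes. Leaving out each replicate gave 1 to 3 genes and 2148 to 2716 probes for pinosylvin minus resveratrol. The median log2 fold change of all tested genes with GR24, 0.078, ranged from 0.050 to 0.18 over the other scalings, so that small differences such as that of *Btg2* are relative to it.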
